A study of Bos taurus with 10 samples.

Results

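The vesicle coats, their adaptors, retromer and the endosomal sorting complexes required for transport (ESCRT) were followed in bovine oocytes before and after in vitro maturation (IVM). Members were every probe set whose single annotated symbol is that of a SEC gene other than the SNARE SEC22, a SAR1 GTPase, a coatomer, clathrin or AP1 to AP4 adaptor subunit, an ARF GTPase, a TMED cargo receptor, a VPS, sorting nexin (SNX) or CHMP gene, *TSG101*, *HGS*, *STAM* or *STAM2*. They came to 121 of the 9155 genes with 1 symbol and to 174 of the 24016 probe sets tested. The rule reads names and no measured value. It therefore also takes in genes of other function, such as *VPS72*, a subunit of a chromatin remodelling complex, and the protein translocation channel of the endoplasmic reticulum (ER), SEC61.

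The data were 10 Affymetrix bovine arrays, 5 of immature and 5 of IVM oocytes, 1 pool of oocytes each from 5 days of ovary collection. The immature oocytes came from follicles of 3 to 8 mm of slaughtered cows and were stripped of cumulus cells and frozen at once. The IVM oocytes came from the same kind of complexes, cultured for 24 h in TCM-199 with fetal calf serum and epidermal growth factor and stripped only afterwards. Both groups were pools selected by eye for the lack of cumulus. From each pool 100 ng of RNA passed through 2 rounds of amplification, so a level is relative to the RNA of that pool, and fewer cells of a type cannot be told apart from less RNA per cell.

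Cargo leaves the ER in COPII vesicles, and COPI vesicles return material from the Golgi to the ER. Clathrin with the adaptors AP1, AP2 and AP3 sorts cargo at the trans-Golgi, the plasma membrane and endosomes. Retromer and the sorting nexins retrieve receptors from endosomes, the HOPS and CORVET tethers lead endosomes to fusion, and ESCRT buds membrane away from the cytoplasm, both in multivesicular bodies and when dividing cells separate. Oocytes use the secretory route for the zona pellucida and for cortical granules, which are released at fertilization.

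The members moved in both directions. The large falls, of *SAR1A*, *CLTA*, *AP3S2*, *CHMP2A*, *SEC11C*, *VPS4A* and *CHMP1A*, were of 6.10- to 12.6-fold in IVM oocytes, whereas *COPA* and *AP1S2* rose by 1.94- and 2.98-fold, although the log2 difference of *COPA* was 0.019 once centred on the poly-A controls described below. The IVM mean was 9.01 for *CLTA* but 7.11 to 7.69 for the other large falls, where the IVM array medians averaged 7.06. How far such low values limit the folds was not tested. Other probe sets of *AP3S2* and *VPS4A* had log2 differences of only -0.49 and -0.32. With limma and Benjamini-Hochberg adjustment over all 24016 probe sets, 12 of the 174 member probe sets fell (6.90%) and 2 rose (1.15%) at an adjusted p under 0.0001. Over all probe sets the shares were 4.81% and 0.974%, and neither share of the members is read as particular to them. In what follows, fell and rose are kept for this threshold, and a probe set that passed an adjusted p of 0.05 alone is called lower or higher at the looser threshold. A log2 difference is always that of IVM minus immature, with its standard error (SE).

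Of the 174 member probe sets, 111 (63.8%) varied, meaning that their 10 values spanned at least 0.01 on the log2 scale. Over all probe sets the share was 39.4%, but these include 10638 without a symbol, whereas every member has one. The 111 stood for 96 of the 121 member genes. Of all 9155 genes with 1 symbol, 5249 had a probe set that varied. The other 63 member probe sets held nearly the same number on all arrays, with differences of at most 9.35e-05, and say nothing on these genes. *AP1B1*, *AP1G2*, *AP1S1*, *AP2A1*, *AP4M1*, *AP4S1*, *ARF1*, *CHMP2B*, *CHMP4C*, *CHMP6*, *CLTB*, *COPG2*, *COPZ2*, *SEC14L2*, *SNX4*, *SNX16*, *STAM*, *TMED5*, *TMED6*, *VPS26B*, *VPS28*, *VPS33B*, *VPS51*, *VPS52* and *VPS54* were the 25 genes with no probe set that varied. Among the 111, 41 probe sets (36.9%) of 39 genes were lower and 35 (31.5%) of 31 genes were higher at an adjusted p under 0.05. The corresponding shares over all varying probe sets were 31.7% and 34.0%. The counts by role below stand beside these shares. The roles were chosen with earlier results of these data known, and no count of a role is read as particular to it. The 5 IVM values lay wholly above or wholly below the 5 immature values in 63 members (56.8%), against 56.3% of all varying probe sets. The median log2 difference was 0.070 over the members that varied and 0.18 over all that varied.

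**Figure D1:**
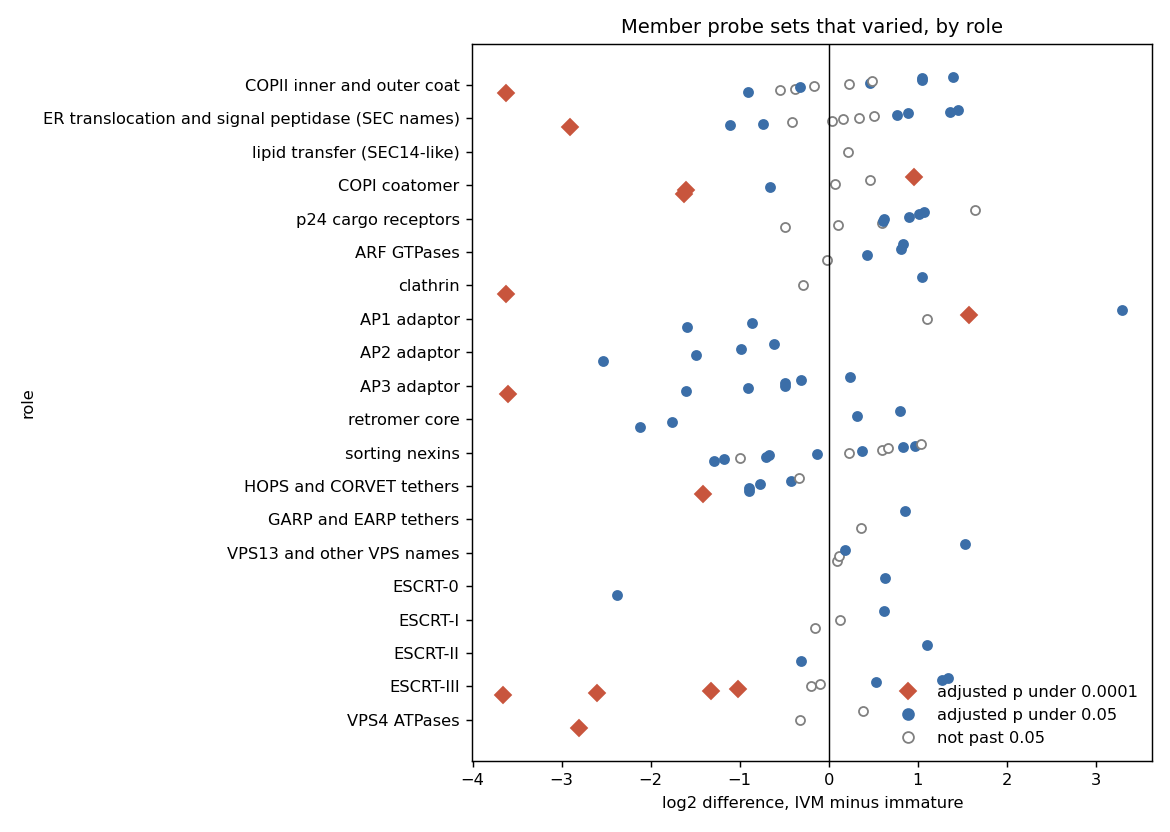
Log2 difference between IVM and immature oocytes (x axis) of the 111 member probe sets that varied, 1 point each, by role (y axis). Diamonds are the 14 probe sets past an adjusted p of 0.0001, filled circles those past 0.05 alone and open circles the rest. All 4 AP2 points and all 6 HOPS and CORVET points are negative. The roles were chosen with earlier results of these data known. Centred on the poly-A controls, every point would lie 0.94 further left, and 19 of the 35 higher probe sets would be negative.

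Several measures moved with the groups. On average, the log2 value of the poly-A transcripts that are spiked into the RNA as controls was 7.02 ± 0.15 (SD, n = 5) in immature and 7.95 ± 0.20 in IVM arrays, a difference of 0.94 ± 0.11 (SE, exact two-sided permutation test, p = 0.00794, the smallest that 5 against 5 can give). The IVM array was the higher one in 5 of 5 pairs of equal number. Equal numbers were taken as 1 day of collection, which the labels do not state. An exact test that exchanges arrays only within such a pair gave p = 0.0625, the smallest it can give. Centring the arrays on the poly-A controls lowers every difference by 0.94, so that 19 of the 35 higher members became negative and 16 stayed positive. The paper's methods do not mention adding these transcripts. Their immature mean of 7.02 lay near the array medians, which averaged 7.07 in immature and 7.06 in IVM arrays, so this centring may rest on low signal. The hybridization controls were low, between 9.38 and 9.73, on immature replicates 1 to 3, and between 10.7 and 11.2 on the other arrays. Of 11 cumulus marker genes, 7 varied, with a mean log2 value over the genes of 6.05 to 7.65 in immature and 10.7 to 13.6 in IVM arrays, and all 7 were higher in IVM oocytes on average. The same mean over 9 of 13 oocyte markers was 12.4 to 13.0 and 10.2 to 11.6, with 6 of the 9 lower. Over 5 of 9 theca and stroma markers it was 6.95 to 7.74 and 8.54 to 10.2, over 8 of 11 granulosa markers 7.06 to 9.91 and 7.41 to 9.08, and none of the 7 blood and immune markers on the array varied. IVM replicate 4 had the highest cumulus value and also the highest IVM value in 14 of the 35 higher members, 19 of the 41 lower members and 16 of the 35 that passed neither. The 7 varying cumulus genes were *HAS2*, *PTGS2*, *PTX3*, *STC1*, *TIMP1*, *TNFAIP6* and *VCAN*. By qPCR the paper found *STC1*, and *LUM* of the stroma markers, higher in oocytes matured in vitro and in vivo. Both were lower with the transcription inhibitor α-amanitin, and the paper proposes that both were newly transcribed in oocytes. Whether these markers follow the amount of cumulus was not tested, nor was the part of these controls and markers in the results below.

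Whether a member passed 0.0001 depended on the fit. In all 14 the groups did not overlap, so all 5 arrays necessarily moved the same way from the immature to the IVM array of equal number. Since the 14 were chosen on these same values, this adds no support to the calls. *SAR1A*, *SEC11C*, *COPB2*, *COPE*, *CLTA*, *AP3S2*, *CHMP1A* and *CHMP2A* passed 0.0001 in each of 10 fits that left out 1 array. With the replicate number, taken as the day of collection, as a block over all probe sets, 0 members passed 0.0001 in limma, whereas of the 111 that varied 46 (41.4%) were lower and 40 (36.0%) higher where p was taken unadjusted at 0.05, against 33.7% and 40.4% of all varying probe sets in that fit. The smallest adjusted p of a member was then 3.72e-04. With the same block over only the most variable probe sets, as many as the methods call informative, 11 of the 14 passed and *COPA*, *AP1S2* and *CHMP4B* did not. The hybridization controls of immature replicates 4 and 5 were not low. However, replicate 4 had the highest mean of the cumulus markers among the immature arrays, 7.65. Against immature replicates 4 and 5 alone, all 14 kept their sign and their differences moved by at most 0.145. In that fit 0 members passed 0.0001 over all probe sets in limma, and 6 of the 14 passed over the most variable ones. For p taken unadjusted at 0.05, 35 of the 111 (31.5%) were lower and 31 (27.9%) higher there, against 29.9% and 27.8% of all varying probe sets.

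**Figure D2:**
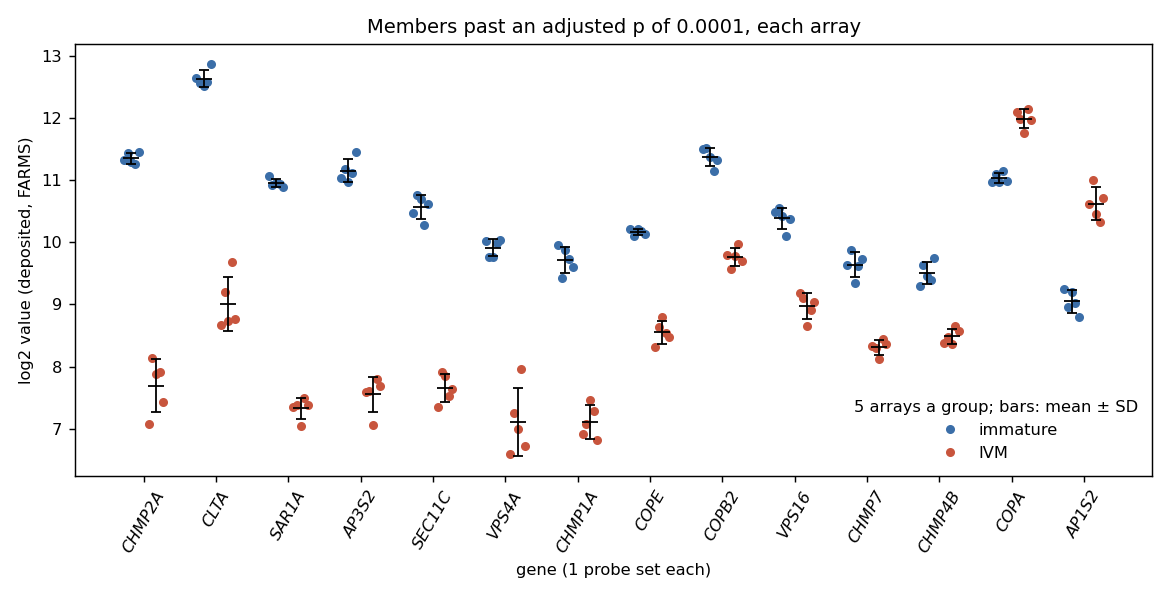
Deposited log2 values (y axis) of the 14 member probe sets past an adjusted p of 0.0001, by gene (x axis), with 5 immature arrays in blue, 5 IVM arrays in red and black bars for mean ± SD. In the 12 genes on the left all IVM values lie below all immature values, and in *COPA* and *AP1S2* all lie above. With poly-A centring, the *COPA* difference would be 0.019 and that of *AP1S2* 0.64.

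In the COPII coat, the GTPase that starts coat assembly fell while an accessory factor was higher on 1 probe set. Of 12 varying COPII probe sets, 3 were lower, 4 higher and 5 passed neither at 0.05. *SAR1A*, the GTPase that recruits the COPII coat to the ER membrane (probe set Bt.20118.1.S1_at), read 11.06, 10.92, 10.95, 10.94 and 10.88 in immature replicates 1 to 5 and 7.34, 7.38, 7.04, 7.50 and 7.38 in IVM replicates 1 to 5. The spread within each group was small beside the gap between them, and *SAR1A* had the smallest adjusted p of any member. Its log2 difference was -3.62 ± 0.081 (SE, adjusted p = 5.82e-08), a 12.3-fold fall. *SEC23IP*, which binds the COPII subunit SEC23 at ER exit sites (probe set Bt.13879.1.S1_at), read 7.64, 7.34, 7.42, 7.85 and 7.33 in immature and 8.93, 8.94, 8.69, 9.53 and 8.50 in IVM replicates. All IVM values were the higher ones, with a difference of 1.40 ± 0.20 (SE, adjusted p = 9.22e-04). Its other varying probe set (Bt.28635.1.S1_at) went the other way, with 7.52, 7.99, 7.73, 7.20 and 7.65 in immature and 6.65, 6.89, 6.22, 6.95 and 6.84 in IVM replicates and a difference of -0.91 ± 0.18 (SE, adjusted p = 0.00593). The gene as a whole therefore has no settled direction here.

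Among the SEC genes of ER translocation and signal peptide cleavage, 3 of 12 varying probe sets were lower, 4 were higher and 5 passed neither. *SEC11C*, a catalytic subunit of the signal peptidase that trims secreted proteins (Bt.20472.1.S1_at), had 10.47, 10.75, 10.70, 10.27 and 10.61 in immature and 7.35, 7.91, 7.84, 7.52 and 7.65 in IVM arrays. No IVM value came within 2 log2 units of an immature one, and the difference was -2.91 ± 0.13 (SE, adjusted p = 1.51e-06), a 7.50-fold fall. *SEC63*, a J-domain partner of the SEC61 channel, had 3 varying probe sets that disagreed. The one with the largest positive difference (Bt.13419.2.A1_at) read 8.75, 9.40, 9.23, 9.03 and 9.52 in immature and 10.62, 10.57, 11.12, 9.71 and 11.19 in IVM arrays, without overlap, and differed by 1.46 ± 0.30 (SE, adjusted p = 0.00626). The second (Bt.13419.3.A1_at) differed by -1.11 ± 0.20 (SE, adjusted p = 0.00319), lower in every IVM array, and the third (Bt.13419.1.S1_at) by 0.16 ± 0.12 (SE, adjusted p = 0.385), with overlapping groups. *SEC14L1*, the varying gene of the SEC14-like lipid transfer family, differed by 0.21 ± 0.17 (SE, adjusted p = 0.419).

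The COPI coat showed both directions within its outer subcomplex of alpha, beta-prime and epsilon subunits. *COPA*, the alpha subunit (Bt.7428.1.S1_at), read 10.97, 11.10, 10.98, 11.15 and 10.98 in immature and 12.09, 11.99, 11.75, 12.15 and 11.96 in IVM arrays. *COPB2*, the beta-prime subunit (Bt.4801.1.S1_at), read 11.49, 11.51, 11.37, 11.14 and 11.33 in immature and 9.79, 9.57, 9.78, 9.98 and 9.70 in IVM arrays. *COPE*, the epsilon subunit (Bt.4141.1.S1_at), read 10.22, 10.11, 10.21, 10.18 and 10.14 in immature and 8.31, 8.64, 8.79, 8.53 and 8.47 in IVM arrays. Every IVM array was above the immature range for *COPA* and below it for *COPB2* and *COPE*. The differences were 0.95 ± 0.077 (SE, adjusted p = 3.50e-05) for *COPA*, -1.60 ± 0.093 (SE, adjusted p = 5.21e-06) for *COPB2* and -1.62 ± 0.083 (SE, adjusted p = 2.69e-06) for *COPE*. Of all 6 varying coatomer probe sets, 3 were lower, 1 was higher and 2 passed neither, and they ranged from -1.62 to 0.95. *COPA* kept its call only without IVM replicate 3 or 4, with adjusted p from 1.83e-05 to 2.31e-04 over the 10 fits without 1 array, and centred on the poly-A controls its difference was 0.019.

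The p24 cargo receptors and the ARF GTPases, which act with COPI, were higher where they passed the looser threshold, although 6 of these 8 turned negative with poly-A centring. Of 9 varying TMED probe sets, 5 were higher and 4 passed neither, with differences from -0.50 to 1.64, and 3 of the 5 became negative once centred on the poly-A controls. *TMED9*, a p24 protein that cycles between ER and Golgi (Bt.8094.1.S1_at), read 8.60, 8.99, 9.32, 8.75 and 8.85 in immature and 9.87, 9.48, 9.90, 10.34 and 10.29 in IVM arrays. Its groups did not overlap and differed by 1.07 ± 0.20 (SE, adjusted p = 0.00365). Of the 4 varying ARF genes, whose products recruit COPI and several adaptors to membranes, 3 were higher. *ARF2* (Bt.461.1.S1_at) read 10.25, 9.75, 10.29, 9.78 and 10.03 in immature and 11.28, 10.56, 10.95, 10.35 and 11.12 in IVM arrays, again without overlap. It differed by 0.83 ± 0.21 (SE, adjusted p = 0.0157), or by -0.10 once centred on the poly-A controls. *ARF5* differed by 0.81 ± 0.22 (SE, adjusted p = 0.0245), *ARF4* by 0.43 ± 0.071 (SE, adjusted p = 0.00197) and *ARF3* by -0.017 ± 0.014 (SE, adjusted p = 0.436). *ARF5* and *ARF4* were also negative with this centring, at -0.12 and -0.50.

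Clathrin's light chain fell, and the probe sets of its heavy chain disagreed. *CLTA*, light chain A of the clathrin triskelion (Bt.1617.2.S1_a_at), read 12.64, 12.55, 12.52, 12.58 and 12.87 in immature and 8.66, 9.19, 8.73, 9.69 and 8.76 in IVM arrays. IVM replicates 2 and 4 stood above the other IVM arrays, and all 5 were far below the immature ones. Its difference was -3.63 ± 0.20 (SE, adjusted p = 4.33e-06), a 12.4-fold fall. *CLTC*, the heavy chain, read 10.80, 11.70, 11.37, 10.89 and 10.72 in immature and 12.12, 12.20, 12.22, 12.38 and 11.81 in IVM arrays on the probe set that was higher (Bt.4786.1.S1_at), a difference of 1.05 ± 0.21 (SE, adjusted p = 0.00559). On its other varying probe set (Bt.4786.1.S2_at) the groups overlapped and the difference was -0.29 ± 0.12 (SE, adjusted p = 0.106).

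Of the 16 varying adaptor probe sets, 12 were lower, 3 were higher and 1 passed neither. Over all varying probe sets 31.7% were lower and 34.0% higher, and the count of the adaptors is not read as particular to them. The AP1 adaptor of the trans-Golgi and endosomes had members in both directions. *AP1S2*, a small sigma subunit (Bt.21853.1.S1_at), read 9.25, 8.96, 9.20, 9.03 and 8.79 in immature and 10.61, 11.00, 10.45, 10.33 and 10.72 in IVM arrays. It rose in every IVM array, by 1.57 ± 0.14 (SE, adjusted p = 6.81e-05), or 2.98-fold. On its second probe set (Bt.9086.1.S1_at) it read 6.25, 5.55, 6.55, 7.05 and 6.25 in immature and 8.83, 10.74, 9.16, 11.37 and 8.00 in IVM arrays, a larger but more variable difference of 3.29 ± 0.67 (SE, adjusted p = 0.00606). The SD of its IVM values, 1.40, was the largest of any member, and IVM replicate 4 was the highest. The call of the first probe set was kept only without IVM replicate 4, with adjusted p from 9.93e-05 to 3.76e-04 over the fits without 1 array.

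*AP1M1*, a mu subunit that recognises sorting signals (Bt.21426.1.S1_at), read 9.52, 9.18, 9.14, 9.49 and 9.49 in immature and 7.59, 7.81, 7.58, 8.32 and 7.55 in IVM arrays. All IVM values were lower, with a difference of -1.59 ± 0.17 (SE, adjusted p = 1.63e-04). Its paralogue *AP1M2* was lower as well, with a difference of -0.86 ± 0.14 (SE, adjusted p = 0.00219), and *AP1G1*, the gamma subunit, differed by 1.10 ± 0.42 (SE, adjusted p = 0.0896) with overlapping groups.

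All 4 varying subunits of AP2, the adaptor of endocytosis at the plasma membrane, were lower at the looser threshold, against 31.7% of all varying probe sets. *AP2B1*, the beta subunit (Bt.3175.1.S1_at), read 10.83, 10.82, 10.83, 10.54 and 10.53 in immature and 7.76, 8.31, 8.02, 9.51 and 7.29 in IVM arrays. The groups did not overlap and differed by -2.54 ± 0.38 (SE, adjusted p = 0.00123). The alpha subunit *AP2A2* differed by -1.50 ± 0.26 (SE, adjusted p = 0.00283), the mu subunit *AP2M1* by -0.98 ± 0.15 (SE, adjusted p = 0.00136) and the sigma subunit *AP2S1* by -0.61 ± 0.16 (SE, adjusted p = 0.022). *AP2S1* was the one with overlapping groups.

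In AP3, which sorts cargo from endosomes to lysosome-related organelles, 6 of 7 varying probe sets were lower and 1 was higher. The shares over all varying probe sets were 31.7% and 34.0%. *AP3S2*, a sigma subunit (Bt.8933.1.S1_at), read 11.03, 11.18, 10.97, 11.11 and 11.46 in immature and 7.60, 7.61, 7.06, 7.80 and 7.69 in IVM arrays. IVM replicate 3 was the lowest, and the fall was 12.1-fold, with a difference of -3.60 ± 0.15 (SE, adjusted p = 9.33e-07). The second probe set of *AP3S2* (Bt.8933.2.S1_at) read 7.05, 6.91, 6.72, 6.89 and 7.08 in immature and 6.45, 6.41, 6.20, 6.39 and 6.76 in IVM arrays, with slight overlap and a smaller difference of -0.49 ± 0.11 (SE, adjusted p = 0.0102). *AP3D1*, the delta subunit (Bt.5475.1.S1_at), was the member that was higher, with 9.50, 9.58, 9.79, 9.55 and 9.60 in immature and 9.74, 9.85, 9.97, 9.78 and 9.85 in IVM arrays. Its groups overlapped, and its difference of 0.23 ± 0.062 (SE, adjusted p = 0.0211) became -0.70 once centred on the poly-A controls. None of the 3 probe sets of AP4 varied.

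The retromer trimer was split, with *VPS29* lower and *VPS26A* and *VPS35* higher at the looser threshold. *VPS29*, the subunit that scaffolds regulators (Bt.2855.1.S1_at), read 9.81, 10.61, 10.03, 10.06 and 9.84 in immature and 8.01, 8.51, 7.00, 8.78 and 7.45 in IVM arrays. Its groups did not overlap and differed by -2.12 ± 0.36 (SE, adjusted p = 0.00229). *VPS26A*, the arrestin-like subunit (Bt.5737.1.S1_at), read 10.57, 10.60, 10.77, 11.26 and 10.72 in immature and 11.42, 11.94, 11.21, 12.12 and 11.22 in IVM arrays, with overlap and a difference of 0.80 ± 0.22 (SE, adjusted p = 0.0276). The long scaffold subunit *VPS35* differed by 0.31 ± 0.085 (SE, adjusted p = 0.0227), and *VPS26C*, which belongs to the related retriever complex, by -1.76 ± 0.21 (SE, adjusted p = 3.97e-04). With poly-A centring *VPS26A* was at -0.14 and *VPS35* at -0.62, so the direction of both depends on the scaling.

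Of 13 varying sorting nexins, 5 were lower, 3 were higher and 5 passed neither. *SNX9*, which acts in clathrin-mediated endocytosis (Bt.5507.2.S1_at), read 10.61, 10.36, 10.54, 10.42 and 10.90 in immature and 9.40, 9.14, 9.32, 8.85 and 9.65 in IVM arrays. *SNX7* (Bt.15717.1.A1_at) read 7.18, 6.54, 7.64, 7.60 and 6.94 in immature and 8.43, 8.16, 7.74, 8.65 and 7.74 in IVM arrays. Neither gene's groups overlapped, where *SNX9* was lower, with a difference of -1.29 ± 0.16 (SE, adjusted p = 4.83e-04), and *SNX7* higher by 0.97 ± 0.27 (SE, adjusted p = 0.0281). The differences of all 13 ranged from -1.29 to 1.04.

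The HOPS and CORVET tethers, which bring late and early endosomes to fusion, held 5 lower members of 6, against 31.7% of all varying probe sets. The differences of all 6 were between -1.41 and -0.33. This role too was chosen with earlier results known, and its count is not read as particular to it. *VPS16*, a subunit of the core that both complexes share (Bt.1535.1.S1_at), read 10.48, 10.54, 10.42, 10.11 and 10.38 in immature and 9.18, 9.10, 8.66, 8.91 and 9.04 in IVM arrays. It fell 2.65-fold and in every IVM array, with a difference of -1.41 ± 0.12 (SE, adjusted p = 4.59e-05). Its call was kept only without immature replicate 4 or without IVM replicate 3, with adjusted p from 7.32e-05 to 2.90e-04 over the fits without 1 array.

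The GARP and EARP tethers, which receive endosome-derived vesicles, had 2 varying members. *VPS53*, shared by both complexes (Bt.9394.1.S1_at), read 7.19, 7.33, 7.29, 7.19 and 7.35 in immature and 8.15, 8.03, 8.26, 7.65 and 8.55 in IVM arrays. It was higher without overlap, by 0.86 ± 0.15 (SE, adjusted p = 0.00286), but stood at -0.077 once centred on the poly-A controls. *VPS50*, the subunit particular to EARP, differed by 0.36 ± 0.21 (SE, adjusted p = 0.266). The chromatin gene *VPS72* (Bt.10041.1.S1_at), which shares only the VPS name, read 10.17, 9.79, 9.40, 9.80 and 10.30 in immature and 11.35, 11.45, 11.56, 10.82 and 11.93 in IVM arrays, higher by 1.53 ± 0.24 (SE, adjusted p = 0.00154). *VPS13D*, a bridge-like lipid transporter, differed by 0.18 ± 0.054 (SE, adjusted p = 0.0392), and both probe sets of *VPS45*, a regulator of endosomal SNAREs, by 0.089 ± 0.15 (SE, adjusted p = 0.751) and 0.12 ± 0.24 (SE, adjusted p = 0.805).

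ESCRT-0 binds ubiquitinated cargo and passes it to ESCRT-I and ESCRT-II, and its 2 varying members went in opposite directions. *HGS*, the ESCRT-0 subunit that binds the endosomal lipid PI3P (Bt.6724.1.S1_at), read 9.20, 9.49, 8.93, 10.67 and 10.20 in immature and 7.61, 7.56, 6.75, 7.33 and 7.35 in IVM arrays. *STAM2*, its partner (Bt.19113.1.A1_at), read 8.52, 8.55, 8.50, 8.31 and 8.42 in immature and 9.28, 8.91, 9.34, 8.73 and 9.18 in IVM arrays. Neither overlapped, where *HGS* was lower, with a difference of -2.38 ± 0.36 (SE, adjusted p = 0.00124), and *STAM2* higher by 0.63 ± 0.12 (SE, adjusted p = 0.00471). *TSG101*, the ubiquitin-binding subunit of ESCRT-I (Bt.1666.1.A1_at), read 10.87, 10.99, 10.93, 10.76 and 10.62 in immature and 11.62, 11.34, 11.40, 11.28 and 11.65 in IVM arrays. It was higher in every IVM array, by 0.62 ± 0.099 (SE, adjusted p = 0.00171). *VPS37A* and *VPS37B* of ESCRT-I differed by 0.13 ± 0.13 (SE, adjusted p = 0.552) and -0.15 ± 0.18 (SE, adjusted p = 0.624). After poly-A centring *STAM2* and *TSG101* both stood at -0.31.

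In ESCRT-II, which links ESCRT-I to ESCRT-III, *VPS25* (Bt.2635.1.S1_at) read 8.95, 8.62, 8.74, 8.78 and 8.81 in immature and 8.47, 8.36, 8.35, 8.46 and 8.68 in IVM arrays. *VPS36* (Bt.17824.3.S1_at) read 6.59, 6.28, 6.71, 6.81 and 6.31 in immature and 7.52, 7.85, 7.27, 8.56 and 7.02 in IVM arrays. *VPS25* was lower with overlapping groups and a difference of -0.31 ± 0.079 (SE, adjusted p = 0.017), and *VPS36* higher without overlap, by 1.10 ± 0.28 (SE, adjusted p = 0.0189).

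Of the 12 falls, 4 were among the 16 probe sets of ESCRT-III and 1 among the 3 of its ATPase, VPS4. Over all probe sets 4.81% fell. The roles were chosen with earlier results of these data known, and these counts are not read as particular to ESCRT-III. ESCRT-III is the filament of CHMP proteins that pinches off membrane, and 4 of its 9 varying probe sets fell, 3 were higher at the looser threshold and 2 passed neither. *CHMP2A*, a late-joining subunit that links the filament to VPS4 (Bt.5624.1.S1_at), read 11.32, 11.43, 11.29, 11.25 and 11.45 in immature and 7.08, 8.14, 7.88, 7.91 and 7.43 in IVM arrays. *CHMP1A*, an accessory subunit (Bt.13377.1.S1_at), read 9.95, 9.43, 9.88, 9.73 and 9.60 in immature and 6.91, 7.08, 7.47, 7.29 and 6.81 in IVM arrays. In both the IVM arrays were more spread than the immature ones and lay far below them. The difference was -3.66 ± 0.19 (SE, adjusted p = 3.10e-06) for *CHMP2A*, a 12.6-fold fall, and -2.61 ± 0.15 (SE, adjusted p = 5.34e-06) for *CHMP1A*, a 6.10-fold fall.

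*CHMP7*, which recruits ESCRT-III to the nuclear envelope (Bt.4082.1.S1_at), read 9.64, 9.88, 9.34, 9.61 and 9.74 in immature and 8.34, 8.30, 8.12, 8.44 and 8.37 in IVM arrays. *CHMP4B*, a main filament subunit (Bt.3621.1.S1_at), read 9.30, 9.63, 9.45, 9.39 and 9.74 in immature and 8.38, 8.47, 8.36, 8.65 and 8.57 in IVM arrays. Both fell in every IVM array, with a difference of -1.33 ± 0.10 (SE, adjusted p = 2.66e-05) for *CHMP7* and of -1.02 ± 0.096 (SE, adjusted p = 9.18e-05) for *CHMP4B*. *CHMP4B* lost its call without any 1 of the 10 arrays, with adjusted p from 1.77e-04 to 5.08e-04, and *CHMP7* kept its call only without immature replicate 2 or 3 or IVM replicate 4, with adjusted p from 2.30e-05 to 1.83e-04. *CHMP1B*, the paralogue of *CHMP1A* (Bt.803.1.A1_at), read 9.68, 9.68, 9.88, 9.56 and 9.55 in immature and 11.04, 11.30, 10.58, 11.40 and 10.77 in IVM arrays, higher without overlap by 1.35 ± 0.16 (SE, adjusted p = 4.04e-04).

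*VPS4A*, the AAA ATPase that takes ESCRT-III filaments apart (Bt.11095.1.S1_a_at), read 10.01, 9.76, 9.77, 9.99 and 10.04 in immature and 6.59, 7.25, 6.99, 7.97 and 6.73 in IVM arrays. IVM replicate 4 was the highest of the IVM arrays, and the fall was 7.00-fold, with a difference of -2.81 ± 0.25 (SE, adjusted p = 6.30e-05). Its other probe set (Bt.28161.1.A1_at) read 8.01, 8.09, 7.90, 7.98 and 8.08 in immature and 7.40, 7.87, 7.61, 8.16 and 7.41 in IVM arrays, with overlap and a difference of -0.32 ± 0.15 (SE, adjusted p = 0.156). *VPS4B* differed by 0.39 ± 0.35 (SE, adjusted p = 0.495). The *VPS4A* call was kept only without IVM replicate 4, with adjusted p from 6.91e-06 to 3.89e-04 over the fits without 1 array. From ESCRT-0 to VPS4, 7 of 19 varying probe sets were lower, 6 higher and 6 passed neither.

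Paralogous subunits of the SAR1, SEC, AP, CHMP and VPS families were also compared within each array. A shift put on all probe sets of an array, as in poly-A centring, cancels in a difference between its probe sets. Effects of the quantile normalization and of the FARMS summary need not cancel. These 13 pairs were set with the values of the members known, so the changes are a description with no test, and the probe set with the highest mean stood for each gene. The change of the first-minus-second difference from immature to IVM was -3.95 ± 0.22 (SE) for *CHMP1A* and *CHMP1B*, 3.42 ± 0.41 for *SEC11A* and *SEC11C*, -3.30 ± 0.079 for *SAR1A* and *SAR1B*, 3.29 ± 0.22 for *AP3S1* and *AP3S2*, and -3.19 ± 0.25 for *VPS4A* and *VPS4B*. *SAR1B* read 7.34 on average in immature and 7.02 in IVM arrays, where the array medians averaged 7.07 and 7.06, so its pair mainly restates the fall of *SAR1A*. With the other varying probe set of *AP3S2* in place of that with the highest mean, an alternative tried once the data were known, the *AP3S1* and *AP3S2* change was 0.18 ± 0.13, and with the other probe set of *VPS4A* the *VPS4A* and *VPS4B* change was -0.71 ± 0.29. The large change of both pairs was read with 1 of the 2 varying probe sets of *AP3S2* and of *VPS4A*. The change was 2.55 ± 0.37 for *VPS26A* and *VPS26C*, -2.11 ± 0.25 for *SEC61A1* and *SEC61A2*, 1.12 ± 0.27 for *AP3B1* and *AP3B2*, 0.92 ± 0.081 for *CHMP4A* and *CHMP4B*, and -0.81 ± 0.15 for *SEC24B* and *SEC24C*. With the other 2 varying probe sets of *SEC61A2* the *SEC61A1* and *SEC61A2* change was -1.50 ± 0.25 and -1.08 ± 0.21. The remaining changes were -0.73 ± 0.25 for *AP1M1* and *AP1M2*, 0.28 ± 0.12 for *VPS37A* and *VPS37B* and -0.22 ± 0.25 for *SEC31A* and *SEC31B*.

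**Figure D3:**
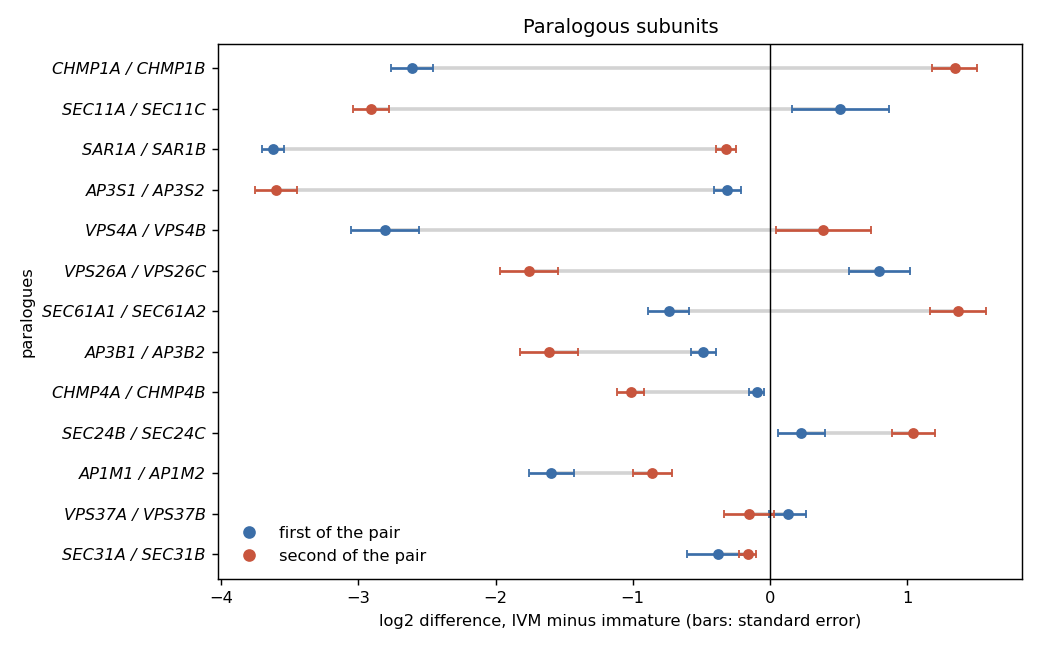
Log2 difference between IVM and immature oocytes (x axis) with its standard error for both members of 13 paralogous pairs (y axis), the first of each pair in blue and the second in red, by the probe set with the highest mean. The distance between the points of a pair is largest for *CHMP1A* and *CHMP1B*. A shift common to all probe sets of an array leaves it unchanged, but quantile normalization need not. The sides of the 0 line do change with such a shift: centred on the poly-A controls, every point moves left by 0.94, and those of *SEC11A*, *SEC24B*, *VPS4B*, *VPS26A* and *VPS37A* become negative.

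Probe sets of 1 gene did not always move alike. Of 13 genes with 2 or 3 varying probe sets, *SEC23IP*, *SEC63*, *CLTC* and *CHMP3* had differences of both signs, and *SEC23IP* and *SEC63* passed the looser threshold in both directions. *CHMP3*, an ESCRT-III subunit, differed by 1.27 ± 0.35 (SE, adjusted p = 0.0249) on 1 probe set and by -0.20 ± 0.079 (SE, adjusted p = 0.105) on the other. The probe sets of *AP3S2*, *VPS4A* and *AP1S2* had the same sign but lay 3.11, 2.49 and 1.72 apart. By contrast the probe sets of *TMED7*, *VPS45* and *VPS41* differed from each other by 0.0062, 0.028 and 0.13. Which transcripts each probe set reads was not tested.

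**Figure D4:**
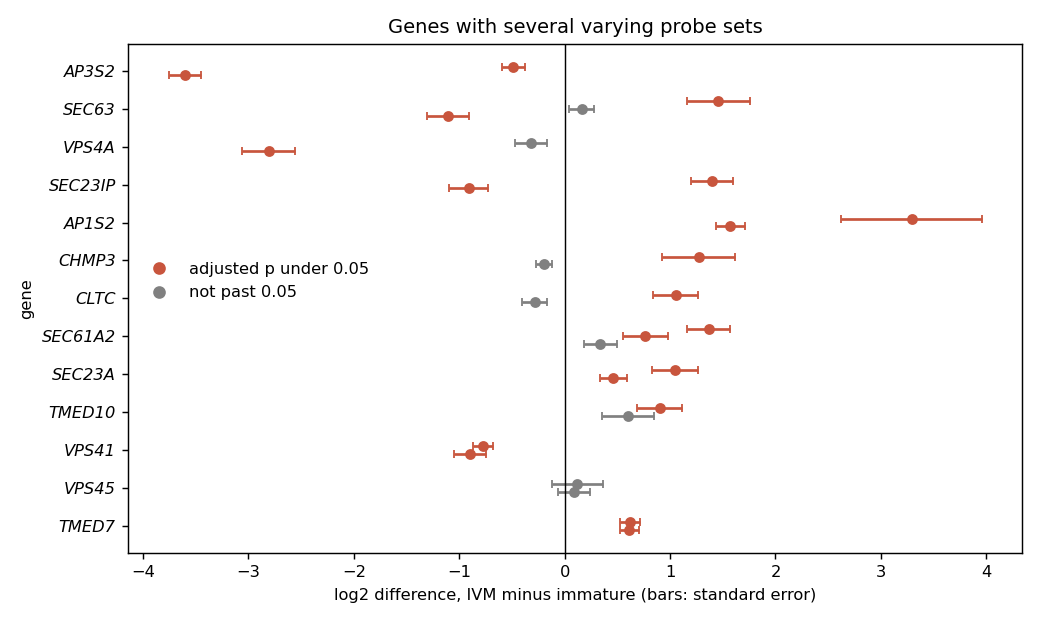
Log2 difference between IVM and immature oocytes (x axis) with its standard error for each varying probe set of the 13 genes that have more than 1 (y axis), in red where the adjusted p is under 0.05 and grey otherwise. The probe sets of *AP3S2* lie 3.11 apart and those of *TMED7* 0.0062 apart. Every point moves left by 0.94 with poly-A centring.

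Genes that work with these coats but lie outside the naming rule were read from 3 lists, chosen with earlier results of these data known. Over all varying probe sets 31.7% were lower and 34.0% higher at the looser threshold. No count of these lists is read as particular to them. Of 20 varying probe sets of ER exit and COPI accessory genes, 4 fell, 1 rose and, at the looser threshold, 7 were lower and 7 higher in all. *CNIH4*, a cargo receptor for membrane proteins, fell on 2 probe sets, with differences of -3.97 ± 0.16 (SE, adjusted p = 7.08e-07) and -3.73 ± 0.26 (SE, adjusted p = 1.62e-05). One of the probe sets of *MIA3*, which helps large cargo leave the ER, fell with a difference of -3.69 ± 0.17 (SE, adjusted p = 1.37e-06), and its other varying probe sets were higher at the looser threshold, by 0.88 ± 0.13 (SE, adjusted p = 0.0012) and 1.41 ± 0.38 (SE, adjusted p = 0.0236). With poly-A centring the smaller of these became -0.051. The call of the second *CNIH4* probe set held in 2 of the 10 fits that left out 1 array. The riser was *ARCN1*, the delta subunit of the COPI coat, with 0.80 ± 0.071 (SE, adjusted p = 6.50e-05), named after its value was seen. It read -0.14 with poly-A centring, and its call was lost without any 1 of the 10 arrays, with adjusted p from 1.04e-04 to 3.85e-04.

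Of 24 varying probe sets of clathrin and adaptor accessory genes, 4 fell, and in all 15 were lower and 5 higher at the looser threshold. For this list and the next, the shares over all varying probe sets were again 31.7% and 34.0%. *EPS15L1*, an endocytic scaffold, fell on 3 probe sets, with differences of -2.79 ± 0.14 (SE, adjusted p = 2.05e-06), -1.99 ± 0.092 (SE, adjusted p = 1.55e-06) and -1.81 ± 0.096 (SE, adjusted p = 3.30e-06), and its 4th differed by -1.36 ± 0.14 (SE, adjusted p = 1.36e-04). Of 17 varying probe sets of retromer and ESCRT accessory genes, 6 fell, and in all 10 were lower and 5 higher at the looser threshold. *USP8*, a deubiquitinase of the ESCRT pathway, fell on both probe sets, with -2.85 ± 0.17 (SE, adjusted p = 6.24e-06) and -2.38 ± 0.19 (SE, adjusted p = 3.84e-05), the second of which passed in 1 of the 10 fits that left out 1 array, and *WASHC3*, a subunit of the WASH complex that works with retromer, with -2.58 ± 0.096 (SE, adjusted p = 4.70e-07).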

How the data were processed

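RNA of 5 immature and 5 IVM pools of bovine oocytes was hybridized to 10 Affymetrix bovine arrays, and groups were taken from the labels. The authors used GCOS to read the arrays and FARMS, after quantile normalization, to summarise the probes. What they deposited is on the log2 scale, with 1 value for each probe set on each array. The amplification starts from the poly(A) tail, so a value follows polyadenylated RNA near the 3' end. FARMS returns almost constant values where the probes of a set do not vary together. The number of value columns not used was 0.

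The 112 control probe sets were set apart. Symbols of the platform annotation were brought up to date by gene identifier (13263 probe sets) or accession (2), with 86 probe sets of several genes and 10638 unnamed ones tested but not named. Positions were not used. The R package limma 3.58.1 (R 4.3.3; lmFit, eBayes) compared IVM with immature over 24016 probe sets, with Benjamini-Hochberg adjustment, at 0.0001, the false discovery rate of the methods, and at 0.05. Control means were compared with exact permutation tests. On simulated data for this comparison over 24016 probe sets, with log2 changes of 1 and of 2 put on 100 probe sets each, 10 and 33 were recovered at 0.0001 with 0 false calls, and 50 and 85 at 0.05 with 8 false calls. The simulation changed far fewer probe sets than passed 0.0001 in the data, 1155 lower and 234 higher. Its noise was independent between probe sets, with no shift between the groups of arrays. Its recovery and false calls therefore do not describe these data.

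The methods give days of collection as replicates, so equal numbers were taken as 1 day. Deviations of equal-numbered arrays from their group means had r = 0.14, -0.35, 0.087, 0.67 and 0.36 across probe sets for replicates 1 to 5. The strongest r with an array of unequal number was 0.21, 0.63, 0.36, 0.48 and 0.21, which is above that of the equal number in replicates 1 to 3 and below it in 4 and 5. The number of arrays limits the precision, and p-values set the difference of the groups against the spread between these pools. The main fit did not use the pairing by day.

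Named genes were all past 0.0001, the largest change each way past 0.05 in each of 21 roles, every varying probe set of a gene of which 1 passed 0.0001, members of roles with 5 or fewer varying probe sets, and at most 3 related probe sets past 0.0001 per list. Others were named after their values were seen, with every varying probe set of *SEC23IP*, *SEC63* and *CLTC*, and the paralogue pairs and genes with several probe sets. Members, roles and lists were chosen with earlier results of these data known. Alternatives were the replicate block, the most variable probe sets, as many as the methods call informative, both together, a span of at least 0.01, trend and robust moderation, centring on array medians or poly-A controls, immature replicates 4 and 5 alone, and leaving out each array. Further steps used Python 3.11.15 with scipy 1.17.1, numpy 2.4.6, pandas 2.3.3 and, for the plots, matplotlib 3.10.9.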

Additional observations from a re-analysis of the deposited data

Results flagged for a closer look

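Among 74 groups of 5 values, 1 for each group of the 37 named probe sets, 1 held a value far from the others. On probe set Bt.8933.1.S1_at of *AP3S2*, IVM replicate 3 read 7.06, whereas the other 4 IVM arrays read 7.60 to 7.80, a gap of 0.72 of the whole range. Chance flags about 1 in 20 such groups.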

How the results depend on the processing

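At an adjusted p under 0.0001, 12 member probe sets were lower and 2 higher. With the replicate block over all probe sets the counts were 0 and 0, over only the most variable probe sets 19 and 4, and with the replicate block over those 13 and 1. With probe sets that spanned at least 0.01 they were 18 and 4, centred on the poly-A controls 116 and 0, and with immature replicates 4 and 5 alone 0 and 0, or 7 and 0 over the most variable probe sets, which was run as an extra once the data had been seen. Members that hardly varied are among the 116, since the shift of the controls is put on them. Leaving out 1 array gave 8 to 13 lower and 0 to 2 higher. At 0.05, 48 were lower and 36 higher, 8 of them among members that hardly varied. Centred on the poly-A controls these counts were 137 and 5, and with immature replicates 4 and 5 alone 26 and 14.

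Centring on the poly-A controls turned *ARF2* to -0.10, *AP3D1* to -0.70, *VPS26A* to -0.14, *VPS53* to -0.077, and *STAM2* and *TSG101* to -0.31. None of the other 31 of the 37 probe sets of the naming rule changed sign in any alternative run. Without immature replicate 1, 5 or IVM replicate 1, 2 or 5, *COPA*, *AP1S2*, *VPS16*, *CHMP4B*, *CHMP7* and *VPS4A* lost their calls at 0.0001. Without immature replicate 2 or 3, *COPA*, *AP1S2*, *VPS16*, *CHMP4B* and *VPS4A* did, and without immature replicate 4, *COPA*, *AP1S2*, *CHMP4B*, *CHMP7* and *VPS4A*. Without IVM replicate 3, *AP1S2*, *CHMP4B*, *CHMP7* and *VPS4A* did, and without IVM replicate 4, *VPS16* and *CHMP4B*. Trend and robust moderation and centring on array medians kept all 14. With fewer arrays or the block fewer degrees of freedom are left. The moderation in limma adds prior degrees of freedom, which were 0.10 over all probe sets and 2.51 over the most variable ones. Their part in the calls and other causes were not tested. Signal over background is not given by the deposited values.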
